A study of Mus musculus with 10 samples.

Results

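The genes described here are the cytosolic ribosomal protein genes, measured in cardiomyocytes of 5 NLC-MI and 5 TgGRK5-MI mice on day 4 after MI. TgGRK5 mice overexpress GRK5, a G protein-coupled receptor kinase, in cardiomyocytes, and NLC are their non-transgenic littermates. All 10 mice had a myocardial infarction, so that no sham-operated heart enters a comparison. The study worked with young adult mice of either sex. The promoter and species of the transgene and the age and sex of each mouse sequenced are not given in the sources used here. Members were chosen by name: protein-coding genes of GENCODE M21 whose symbol starts with Rpl or Rps and a number, with Rplp0, Rplp1, Rplp2 and Rpsa, and without the Rps6k kinases and symbols that carry "-ps". The rule found 86 of the 51789 genes listed, of which 51 encode proteins of the large subunit or their paralogues and 33 those of the small subunit. The other 2, Rpl7l1 and Rps19bp1, match by name, but their products are not subunits of the cytosolic ribosome. Of the 86 genes, 84 passed the filter on low counts, as did 15232 genes in all. The exceptions were Rpl10l, the retrogene of Rpl10 expressed in testis, with 0 to 1 counts a library, and Rpl39l, the paralogue of Rpl39, with 2 to 10 counts.

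The ribosome is built from a small subunit, which reads the mRNA, and a large subunit, which joins the amino acids. The mRNAs of its proteins begin with a run of pyrimidines through which mTOR controls their translation, and a growing or stressed heart muscle cell changes its protein synthesis by this route. Ribosomal protein genes are also the source of many processed pseudogenes, which are copies of spliced mRNA inserted elsewhere in the genome. Such a copy holds the coding sequence without introns, so that a short read from the mRNA can match the gene and the copy equally well.

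Library totals lay between 7968779 and 23381527 counts, and the lowest totals were those of NLC-MI 3, TgGRK5-MI 4 and TgGRK5-MI 3. In CPM (counts relative to library size, scaled with TMM), Grk5 ranged from 46.5 to 73.1 across the NLC-MI libraries and from 552 to 1700 across the TgGRK5-MI libraries. Summed over 10 cardiomyocyte markers the libraries held 54778 to 140230 CPM, and all 10 were detected in every library. Fibroblast markers summed to 4028 to 24745 CPM over 7 genes and macrophage or monocyte markers to 736 to 2458 CPM over 10 genes. None of the fibroblast or macrophage markers and 1 cardiomyocyte marker had an unadjusted p under 0.05 between the groups (edgeR quasi-likelihood test). In these bulk libraries, fewer cells of a type and less RNA per cell cannot be told apart.

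The sequences below show why the counts of these genes have to be read together with those of their copies. Rpl13 (ENSMUSG00000000740, chr8:123102350-123105244, GRCm38, plus strand), a large subunit protein, has a processed pseudogene, Gm12918 (ENSMUSG00000066315, chr4:10848420-10849055), whose 636 bases match the coding sequence of Rpl13 at 100% of positions. The first 90 bases of that match carry no difference, so that there are no capitals in them.
Rpl13: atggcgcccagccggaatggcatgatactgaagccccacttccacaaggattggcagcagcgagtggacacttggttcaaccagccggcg
Gm12918: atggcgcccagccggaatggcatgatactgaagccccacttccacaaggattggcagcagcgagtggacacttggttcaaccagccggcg
Rplp0 (ENSMUSG00000067274, chr5:115559467-115563727, plus strand), the scaffold of the acidic stalk of the large subunit, has the processed pseudogene Gm8730 (ENSMUSG00000063696, chr8:102864845-102865798, minus strand), which matches it over 954 bases with 98.7% identity. The stretch shown is the 90 bases of the coding sequence with the most differences, and capitals mark the 3 bases at which the gene and the copy differ.
Rplp0: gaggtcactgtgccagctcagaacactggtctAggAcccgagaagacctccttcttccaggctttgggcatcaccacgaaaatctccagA
Gm8730: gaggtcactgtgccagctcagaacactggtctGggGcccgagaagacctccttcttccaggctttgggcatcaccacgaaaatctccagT
Rps27 (chr3:90212522-90213651, minus strand), Rps27rt (chr9:114982366-114982739, minus strand) and Rps27l (chr9:66946086-66949516, plus strand) are all members. Capitals mark bases that differ from Rps27 in the first 90 bases of each coding sequence.
Rps27: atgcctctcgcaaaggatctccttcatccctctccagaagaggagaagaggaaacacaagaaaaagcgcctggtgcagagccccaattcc
Rps27rt: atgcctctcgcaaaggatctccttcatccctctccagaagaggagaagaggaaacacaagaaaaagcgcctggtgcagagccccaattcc
Rps27l: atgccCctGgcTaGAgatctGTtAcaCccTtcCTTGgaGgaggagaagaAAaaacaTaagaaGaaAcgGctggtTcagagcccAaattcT
Over the whole coding sequence of 255 bases, stop codon included, Rps27rt was identical to Rps27, whereas Rps27l differed from it at 61 bases.

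In all, 576 copies with counts, 574 annotated as pseudogenes and 2 as protein-coding genes with a pseudogene symbol (Rpl10-ps3 and Rps12-ps3), matched the transcript of 75 of the 86 genes at 90% identity or more over at least 80% of the copy. All are called pseudogenes here. They held 1192331 counts over the 10 libraries, against 4986224 counts on the ribosomal protein genes themselves. In 36 of the 84 tested genes the pseudogenes held at least 10% of the counts of the gene and its copies together (the family) in some library, and in 16 of these they held over 50% in each of the 7 deeper libraries. For Rpl5, which binds the 5S ribosomal RNA, Gm15500 and other copies held 94.1 to 95.8% of the counts in those 7 libraries. For Rpl12, of the base of the stalk, Gm10275 and 9 other copies brought the share to between 94.9 and 97.1% in all 10 libraries. For Rpl10, which joins the large subunit last, 9 copies held 92.8 to 96.4%, the most abundant being Rpl10-ps3. In all, 42 pseudogenes held at least 10% of the counts of their family in some library. Others with large shares at their highest were Gm7536 with 79.3% of the Rpl27a family, Rps23-ps1 with 83.5% of that of Rps23, Rpl31-ps8 with 82.7% of that of Rpl31 and Rps16-ps2 with 62.9% of that of Rps16. Of the 576 pseudogenes, 20 were identical to their gene over their whole length, among them Gm12918, Rps6-ps4, Rpl28-ps1 and Rps12l1.

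The share on pseudogenes did not stay the same from library to library. Across the 10 libraries it was 19.1 to 21.1% of all family counts in 8 libraries, 11.6% in NLC-MI 3 and 13.8% in TgGRK5-MI 4. For Rpl13 the pseudogenes held 65.5 to 72.6% of the family counts in the 7 deeper libraries, 40.0% in TgGRK5-MI 3, 0.0315% in TgGRK5-MI 4 and 0.0% in NLC-MI 3. For Rps6, the small subunit protein phosphorylated by S6 kinases, the shares were 51.3 to 69.5%, 49.3%, 2.49% and 0.673% in the same order, with Rps6-ps4 as the main copy. For Rps12, of the small subunit, they were 95.2 to 96.7%, 89.7%, 68.8% and 50.9%. In 20 of the 36 families the share of NLC-MI 3, TgGRK5-MI 3 and TgGRK5-MI 4 lay below that of all 7 other libraries, and in 4 families (Rpl17, Rpl19, Rpl36 and Rps2) it lay above them. In the remaining 12 families the libraries overlapped. The plot of pseudogene shares shows the 3 libraries as columns that differ from their neighbours in both groups. They are the libraries with the lowest totals, and the part of depth in this split was not tested.

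**Figure D1:**
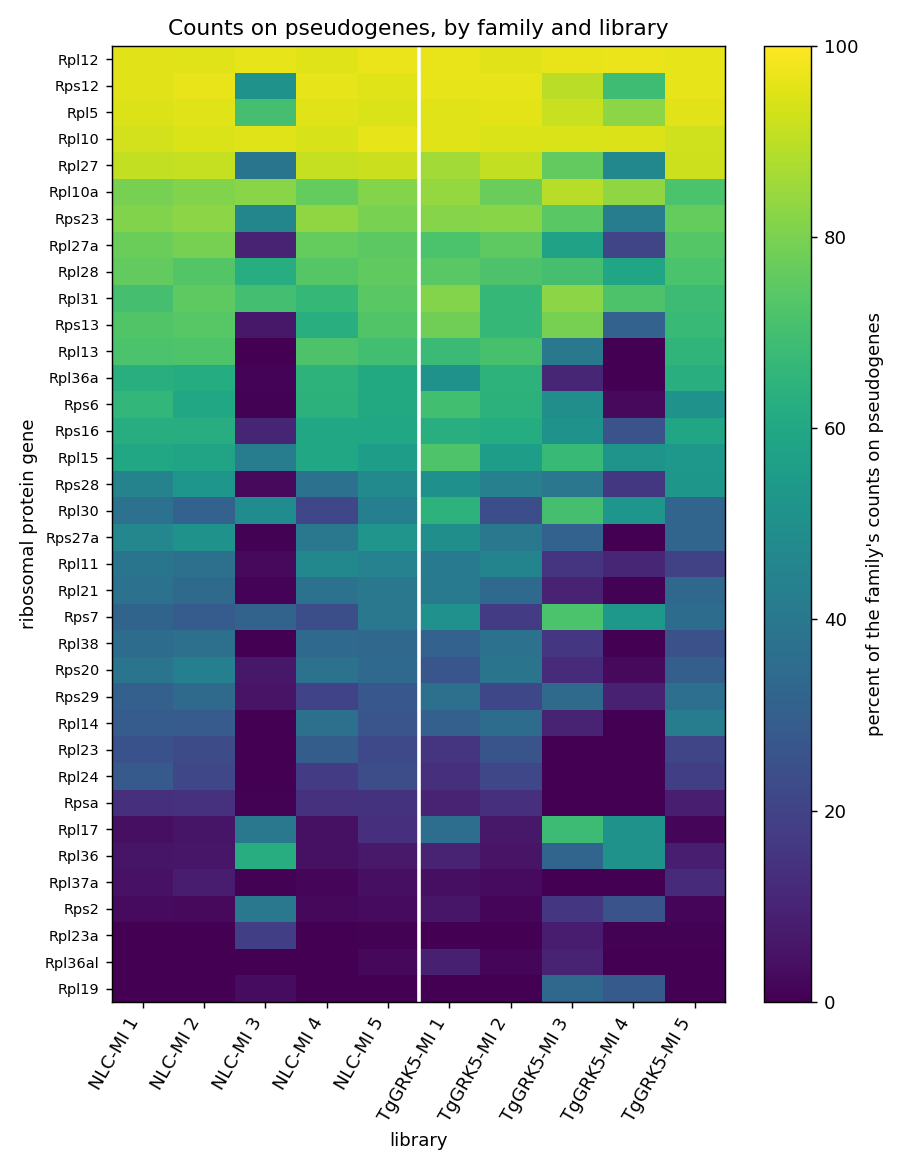
Percent of each family's counts that lay on pseudogenes (colour, 0 to 100%) for the 36 tested ribosomal protein genes at 10% or more in some library (rows, ordered by median) in the 10 libraries (columns, the white line divides NLC-MI from TgGRK5-MI). NLC-MI 3 and TgGRK5-MI 4 are darker than the other columns in families such as Rpl13, Rps6, Rpl36a and Rps27a, where their shares were under 3%.

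This split showed in the values of single genes. Rps6 alone was at 193, 193, 811, 203 and 210 CPM in NLC-MI 1 to 5 and at 163, 222, 351, 836 and 343 CPM in TgGRK5-MI 1 to 5. NLC-MI 3 and TgGRK5-MI 4 stood far above the rest. With the pseudogene counts added, the Rps6 family was at 573, 476, 816, 569 and 534 CPM in NLC-MI and at 534, 621, 693, 857 and 705 CPM in TgGRK5-MI, and the high and low libraries came closer together. For the 36 families with 10% or more on pseudogenes, the median ratio of the highest to the lowest library was 2.6 for the gene alone and 1.82 with the pseudogene counts added. The median standard error of the log2 fold change fell from 0.29 to 0.19 in these families and was smaller in 30 of 36. In the other 48 genes the median standard error was 0.21 with either count, and the median ratio was 1.95.

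Per kilobase of transcript, the ribosomal protein genes were among the most abundant mRNAs of these cardiomyocyte libraries, which also held fibroblast and macrophage markers. The level used here is counts per kilobase of the principal coding transcript, scaled to the same sum over all genes in each library and averaged over 10 libraries. Of the 84 tested genes, 66 were among the 500 genes with the highest level, and the median level was 807 (quartiles 395 and 1089). The highest were Rplp1, an acidic protein of the stalk, at 2775 ± 680 (SD, n = 10), Rps2, of the mRNA entry site, at 2041 ± 460, and Rpl41, the smallest ribosomal protein, at 2040 ± 385. Library by library, Rplp1 was above Rps2 in 10 of 10 and above Rpl41 in 9 of 10, whereas Rps2 was above Rpl41 in 5 of 10, so that the order of Rps2 and Rpl41 did not hold beyond their spread. Rplp0 was seventh at 1543 ± 413 and Rpsa, also known as the laminin receptor, was at 1088 ± 236. The lowest tested genes were Rps19bp1 at 24.3 ± 4.14, Rpl12 at 26.0 ± 9.79 and Rpl5 at 37.3 ± 28.3. Rpl12 and Rpl5 encode proteins of every ribosome, and both genes had more than 70% of their family counts on pseudogenes in every library.

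With the pseudogene counts added and levels taken per kilobase of coding sequence, Rpl12 moved from place 83 to place 31 of 86, at 832. Rpl10 moved from place 80 to place 29, at 841, and Rps12 from place 74 to place 19, at 995. Rpl5 moved from place 82 to place 71, at 535. The quartiles of the 84 genes drew together to 597 and 947, with a median of 751. The counts and the length were changed together, so that their parts in these moves cannot be told apart. Rps15a, with at most 1.72% of its family counts on pseudogenes, moved from place 77 to place 53. Rps24, with at most 0.828%, moved from place 43 to place 3. The genes that stayed low were mostly paralogues, namely Rps27rt at 57.7, Rpl3l at 94.6, Rpl22l1 at 138 and Rps27l at 318, with Rps19bp1 at 24.2 and Rpl7l1 at 73.1. Rpl41 stood at 7530 on this scale, where its coding length is 75 bases in a transcript of 544 bases, so that its place depends on the length used. The median level per kilobase of all annotated exons was 456. The plot of levels shows Rpl12, Rpl5 and Rpl10 at the left edge. Rpl12 and Rpl10 lie at the height of the other genes, and Rpl5 lies below the lower quartile.

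**Figure D2:**
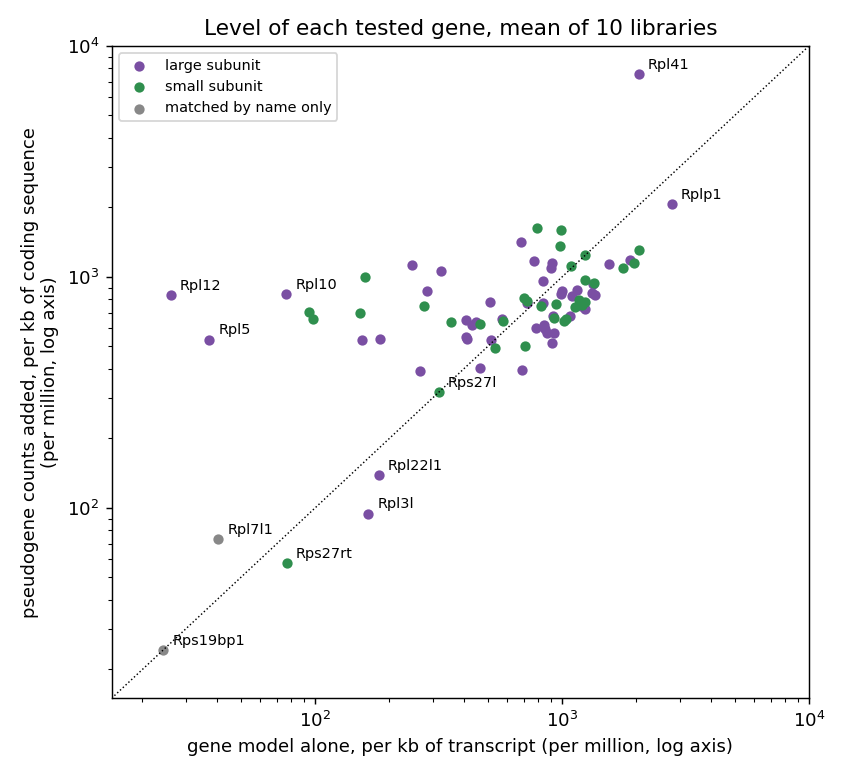
Mean level over 10 libraries of the 84 tested genes, from the gene model alone per kilobase of transcript (horizontal, log axis) and with pseudogene counts added per kilobase of coding sequence (vertical, log axis), each scaled to the same library sum; the dotted line marks equality. Rpl12, Rpl5 and Rpl10 lie between 26.0 and 76.4 on the horizontal and between 535 and 841 on the vertical axis.

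Exons of 38 of the 86 genes share bases with those of another annotated gene, 17 of them on the opposite strand. In 8 cases the other gene held at least 10% as many counts as the ribosomal protein gene without its pseudogenes. These were Rpl12 with Lrsam1, Rpl15 with Nkiras1, Rpl28 with Ube2s, Rpl32 with Cand2, Rpl35 with Arpc5l, Rpl5 with Fam69a, Rps18 with Vps52 and Rps28 with Kank3. Pseudogenes held at least 94.9% of the Rpl12 family and 70.5% of the Rpl5 family in every library. Set against the family counts, Lrsam1 and Fam69a would therefore weigh less. The library kit does not mark the strand, so that reads from the shared bases cannot be told apart.

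The summed signal of the 86 genes was 29046, 24382, 29847, 27310 and 26380 CPM in NLC-MI 1 to 5 and 23242, 31074, 29793, 29607 and 35536 CPM in TgGRK5-MI 1 to 5. The lowest and the highest library were both TgGRK5-MI, and the groups overlapped. Ribosomal protein genes took 2.30 to 3.61% of all counts in a library, and with their pseudogenes 2.86 to 4.46%. With the pseudogene counts added, the sums were 36491, 30481, 33756, 34129 and 32832 CPM in NLC-MI and 29446, 38786, 36938, 34329 and 43963 CPM in TgGRK5-MI. In these family counts TgGRK5-MI 5 was the highest library for 45 of the 84 genes and above the mean of all libraries for 78. TgGRK5-MI 1 was the highest for 0 of 84 and above the mean for 3. Cardiomyocyte markers summed to 71878 CPM in TgGRK5-MI 5 and 88962 CPM in TgGRK5-MI 1, fibroblast markers to 8152 and 14144 CPM and macrophage markers to 1835 and 1296 CPM. Their part in the difference between these 2 libraries was not tested.

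**Figure D3:**
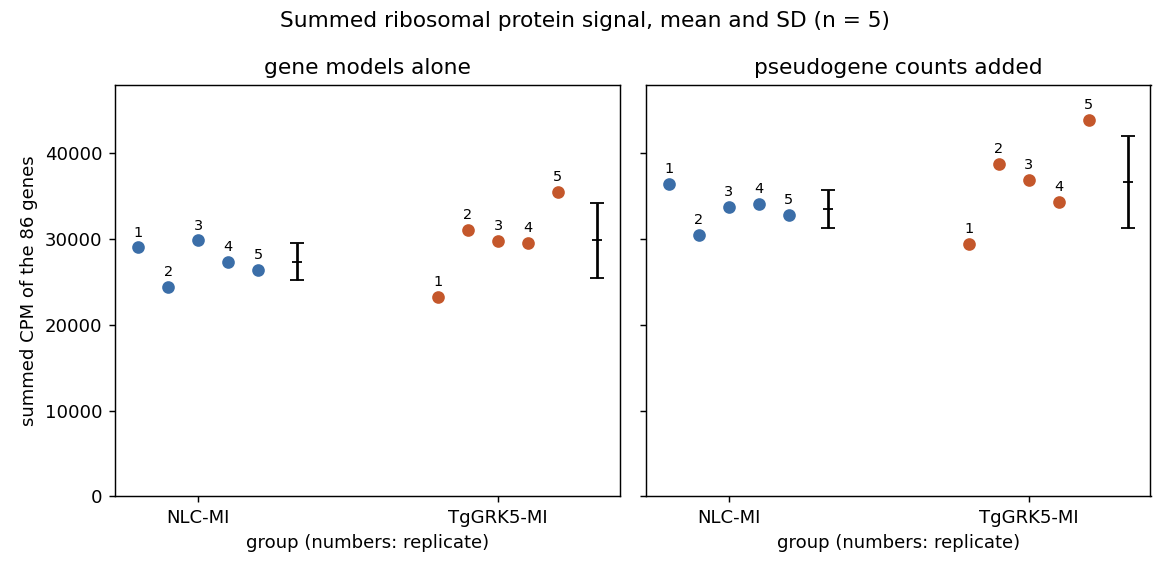
Summed CPM of the 86 ribosomal protein genes in each library (points, numbered by replicate) for the gene models alone (left) and with pseudogene counts added (right), with the group mean and SD (bars, n = 5). TgGRK5-MI 1 and TgGRK5-MI 5 are the lowest and the highest library in both panels, at 23242 and 35536 CPM on the left.

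The comparison of TgGRK5-MI with NLC-MI asks whether overexpression of GRK5 went with another amount of ribosomal protein mRNA after MI. No gene of the group passed the test. By edgeR's quasi-likelihood test with Benjamini-Hochberg adjustment, 0 of 84 genes had an adjusted p under 0.10, where 0.0788% of all genes tested did. At an unadjusted p under 0.05, 0 of 84 genes rose and 0 fell in TgGRK5-MI, against 1.77% higher and 2.08% lower among all genes tested. By DESeq2 1 gene and by limma-voom 2 genes were higher, and the share over all genes in those fits is not given here. In 0 of 84 genes the CPM of the groups did not overlap, against 1.00% of all genes. The log2 fold changes lay between -0.60 (Rpl3l) and 0.44 (Rpl36a) with a median of 0.10, 58 above and 26 below 0, where the median of all genes tested was 0.00. The medians of the large and small subunit genes were 0.10 and 0.12. The 95% interval of the change lay within a fold of 2 in either direction for 70 of 84 genes, so that changes of that size were outside the interval for those genes.

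With the pseudogene counts added, the interval lay within a fold of 2 for 80 of 84 genes, the exceptions being Rpl22l1, Rpl3l, Rps26 and Rps27rt. The median log2 fold change was 0.12, with 66 genes above and 18 below 0. Again 0 of 84 genes had an adjusted p under 0.10 (background 0.0791%), and 0 were non-overlapping (background 1.00%). At an unadjusted p under 0.05, 1 gene was higher (background 1.73%) and 0 were lower (background 2.30%). The higher gene was Rpl10a, of the large subunit. Its family was at 375, 310, 333, 356 and 273 CPM in NLC-MI 1 to 5 and at 317, 419, 475, 442 and 463 CPM in TgGRK5-MI 1 to 5. TgGRK5-MI 1 lay within the NLC-MI range and the other 4 above it. The log2 fold change was 0.36 (standard error 0.16, edgeR p = 0.0427, adjusted p = 1.00, exact permutation p = 0.0397). With 1 library left out, p stayed under 0.05 in 3 of 10 fits, those without NLC-MI 1, NLC-MI 4 or TgGRK5-MI 1, and rose above it in the other 7, to at most 0.0984. For Rpl10a without its copies it was 0.28 (standard error 0.27, edgeR p = 0.317, exact permutation p = 0.532).

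**Figure D4:**
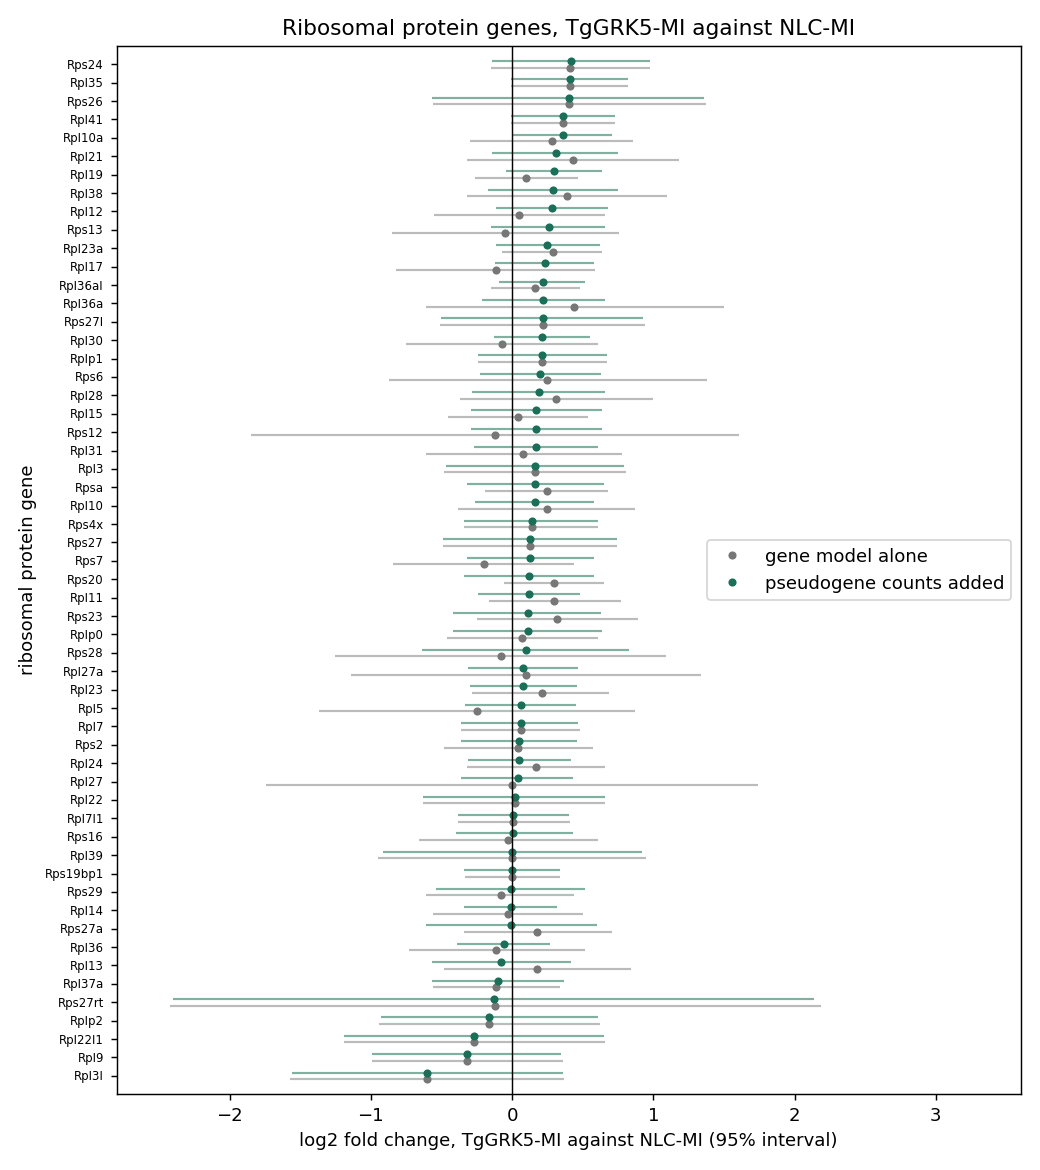
Log2 fold change of TgGRK5-MI against NLC-MI with its 95% interval (horizontal axis) for 56 tested ribosomal protein genes (rows), namely those named here and the 36 families with 10% or more on pseudogenes, from the gene model alone (grey) and with pseudogene counts added (green), by edgeR. The intervals are narrower in green for most families with copies, such as Rps12, Rpl27 and Rps6, and the interval of Rpl10a in green starts at 0.01.

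For the gene models alone, the count of 0 genes at an unadjusted p under 0.05 changed most without NLC-MI 3, the smallest library. In that library 4 erythroid markers summed to 410 CPM, against 9.23 to 50.8 CPM in the others, and their part was not tested. Without it, 13 of 84 genes were higher at an unadjusted p under 0.05 and 0 were lower, against 3.80% higher and 3.07% lower among all genes tested, and 0 had an adjusted p under 0.10. The 13 genes were Rps24, Rps26, Rps6, Rpl28, Rps27l, Rpl21, Rpl27a, Rps27rt, Rpl38, Rps12, Rpl27, Rpl36a and Rpl41, with log2 fold changes from 0.42 (Rpl41) to 2.10 (Rps27rt). With the pseudogene counts added, 5 genes were higher without NLC-MI 3, namely Rps24, Rps26, Rps27l, Rps27rt and Rpl41, against 3.71% of all genes in that fit. In both fits TgGRK5-MI 3 and TgGRK5-MI 4 are the only libraries left with the other split on pseudogenes. Both are of the TgGRK5-MI group, so that the split and the genotype cannot be told apart there. Rps12 alone was at 35.1 and 116.8 CPM in them, against 12.8 to 22.7 CPM in the 7 deeper libraries. Without NLC-MI 3, TgGRK5-MI 3 and TgGRK5-MI 4, that is in the 7 deeper libraries, 0 genes had an unadjusted p under 0.05 with either count, against 3.26% of all genes with either, and the median log2 fold change was 0.15.

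Among the proteins of the stalk, which recruits the elongation factors, Rplp0 was at 1317, 1181, 722, 1182 and 1177 CPM in NLC-MI 1 to 5 and at 1062, 1456, 1043, 787 and 1524 CPM in TgGRK5-MI 1 to 5. NLC-MI 3 and TgGRK5-MI 4 were the low libraries, and the log2 fold change was 0.07 with a 95% interval of -0.46 to 0.61. Rplp1 changed by 0.21 (-0.24 to 0.67) and Rplp2, its partner in the stalk, by -0.16 (-0.94 to 0.62). The low libraries of Rplp2 were NLC-MI 3 with 89.6 CPM and TgGRK5-MI 4 with 96.9 CPM, against 194 to 320 CPM elsewhere.

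The genes with the smallest p of the group were Rpl35 and Rpl41. Rpl35, which lies at the exit of the peptide tunnel, was at 219, 166, 191, 177 and 182 CPM in NLC-MI and at 202, 209, 382, 211 and 236 CPM in TgGRK5-MI, with TgGRK5-MI 3 far above the other libraries. The log2 fold change was 0.41 (standard error 0.19, 95% interval -0.01 to 0.82, edgeR p = 0.0556, adjusted p = 1.00, exact two-sided permutation p = 0.0317). Rpl41 was at 594, 470, 625, 519 and 474 CPM in NLC-MI and at 533, 734, 701, 662 and 812 CPM in TgGRK5-MI. Its groups overlapped through TgGRK5-MI 1, and the log2 fold change was 0.36 (standard error 0.17, 95% interval -0.01 to 0.73, edgeR p = 0.0576, adjusted p = 1.00, exact two-sided permutation p = 0.0317). The permutation values are not adjusted for the number of genes.

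The largest log2 fold changes among the gene models were those of Rpl36a at 0.44, Rpl21 at 0.43, Rps24 and Rpl35 at 0.41, and Rps26 at 0.40. Rps26, of the mRNA exit site, was at 325, 257, 918, 292 and 235 CPM in NLC-MI and at 311, 322, 744, 948 and 358 CPM in TgGRK5-MI. The high values were again NLC-MI 3, TgGRK5-MI 3 and TgGRK5-MI 4, although its pseudogenes held under 2% of the family counts. At the other end stood Rpl3l at -0.60, Rpl9 at -0.32, Rpl22l1 at -0.27, Rpl5 at -0.25 and Rps7 at -0.20. With the pseudogene counts added, Rpl5 was at 0.06 (95% interval -0.33 to 0.45) and Rps7 at 0.13 (-0.32 to 0.58). Rpl3l, Rpl9 and Rpl22l1 kept their values, and at the upper end Rpl36a came to 0.22 and Rpl21 to 0.31. Rpl9, of the large subunit, showed the opposite order of libraries, with 179 CPM in NLC-MI 3, 227 CPM in TgGRK5-MI 3 and 186 CPM in TgGRK5-MI 4 against 261 to 472 CPM in the other 7.

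Several ribosomal proteins have a paralogue that can take their place in the ribosome, and the pair was compared by the share of the paralogue per kilobase. Rpl3l, the paralogue of Rpl3 found in heart and skeletal muscle, was at 101, 129, 95.5, 77.7 and 376 CPM in NLC-MI 1 to 5 and at 123, 81.2, 168, 50.1 and 92.3 CPM in TgGRK5-MI 1 to 5. The value of NLC-MI 5 exceeded every other library, and that library also had the highest sum of cardiomyocyte markers, at 140230 CPM, and the lowest sum of fibroblast markers, at 4028 CPM. Their part in the value of Rpl3l was not tested. Rpl3l made up 15.2, 20.1, 23.6, 9.71 and 54.1% of the pair in NLC-MI and 21.5, 10.5, 31.5, 11 and 10.4% in TgGRK5-MI. The groups overlapped (exact two-sided permutation test of the share, p = 0.468), and the log2 fold change of Rpl3l was -0.60 (standard error 0.44, 95% interval -1.57 to 0.37). Without NLC-MI 5 it was 0.02, and it lay between -0.86 and -0.42 with any other library left out. Rpl3 itself changed by 0.16 (-0.48 to 0.81). The coding sequences of the 2 genes were 73.3% identical.

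Rpl22l1, which can replace Rpl22, made up 12.6 to 17.6% of its pair in NLC-MI and 7.93 to 16.9% in TgGRK5-MI (exact permutation p = 0.206). Rpl36al made up 62.6, 64.9, 37.9, 68.5 and 64.1% of its pair with Rpl36a in NLC-MI and 61.2, 65.9, 44.1, 34.8 and 61.9% in TgGRK5-MI, so that the 3 shallower libraries were low. With pseudogene counts added to both genes, its share was 37.7 to 43.5% in NLC-MI and 34.8 to 45.8% in TgGRK5-MI, and no library stood apart. Rps27l, a target of p53, made up 11.8 to 15.7% of the pair with Rps27 in NLC-MI other than NLC-MI 3, where it made up 46.4%, and 38.6% in TgGRK5-MI 4. Rps27rt, with the same coding sequence as Rps27, made up 32.7% of the pair in NLC-MI 3 and 21.5% in TgGRK5-MI 4, against 0.487 to 2.20% in the 7 deeper libraries. The exact permutation p of these shares was 0.437 for Rpl36al, 0.802 for Rps27l and 0.913 for Rps27rt, and with the other pairs 7 pairs were compared, none under 0.05. Rpl10l had 0 to 1 counts a library, so that its test could not reach 0.05, and Rpl39l had 2 to 10 counts. For Rps27rt, reads from the coding sequence cannot be told from those of Rps27.

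**Figure D5:**
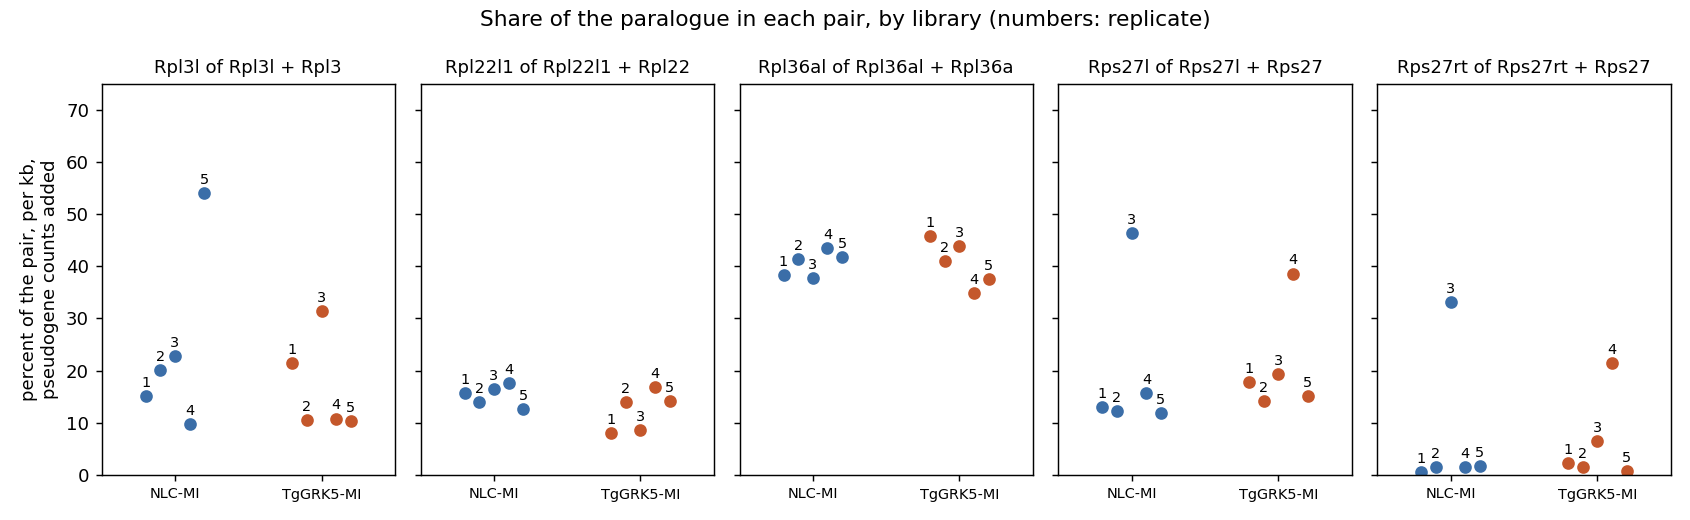
Share of the paralogue in 5 pairs of ribosomal protein genes (vertical axis, percent of the pair per kilobase of transcript, pseudogene counts added) in each library (points, numbered by replicate). Rpl3l is high in NLC-MI 5, Rps27l and Rps27rt are high in NLC-MI 3 and TgGRK5-MI 4, and the shares of Rpl36al lie between 34.8 and 45.8% in all 10 libraries.

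On the X chromosome lie Rps4x, of the small subunit, Rpl10, Rpl36a and Rpl39. Rps4x changed by 0.14 (95% interval -0.34 to 0.61), Rpl10 by 0.25 (-0.38 to 0.87) and Rpl39 by 0.00 (-0.95 to 0.95). With pseudogene counts added, the family of Rpl10 changed by 0.16 (-0.26 to 0.58) and that of Rpl36a by 0.22 (-0.21 to 0.66). Of the 2 genes matched by name, Rpl7l1 changed by 0.01 (-0.38 to 0.41) and Rps19bp1 by 0.00 (-0.33 to 0.34). Rps19bp1, which binds Rps19, was at 9.10 to 12.9 CPM in all libraries and was among the steadiest members.

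The pseudogenes themselves were also tested. Of 60 pseudogenes, 0 had an adjusted p under 0.10 (edgeR). At an unadjusted p under 0.05, 4 were higher in TgGRK5-MI and 0 were lower, against 1.77% higher and 2.08% lower among all genes tested. Gm8730, the copy of Rplp0 shown above, had 8, 12, 60, 11 and 24 counts in NLC-MI 1 to 5 and 756, 1336, 235, 123 and 826 counts in TgGRK5-MI 1 to 5. The 2 groups did not overlap, which held for 1 of the 60 pseudogenes and for 1.00% of all genes, and this gene was named after its values were seen. The log2 fold change came to 4.19 (standard error 0.83, edgeR p = 0.000315, adjusted p = 0.208), and the exact two-sided permutation test gave p = 0.00794, the smallest that 5 against 5 libraries allow. The adjusted p was 0.00314 by DESeq2 and 0.00035 by limma-voom, and it ranged from 0.00035 to 0.537 over 22 alternatives. All copies of Rplp0 together held 0.0635, 0.0685, 1.25, 0.0754 and 0.167% of the family counts in NLC-MI and 3.11, 3.85, 1.99, 1.71 and 2.83% in TgGRK5-MI, so that they moved the log2 fold change of Rplp0 from 0.07 to 0.11. The other pseudogenes were Rpl10-ps3 at 0.45 (standard error 0.17), Rpl10a-ps1 at 0.38 (standard error 0.16) and Rpl36a-ps3 at 3.27 (standard error 1.41). Their edgeR p values were 0.0212, 0.0313 and 0.0395, and those of the exact permutation test 0.0238, 0.0317 and 0.246. With 1 library left out, p stayed under 0.05 in 8 of 10 fits for Rpl10-ps3 (not without NLC-MI 2 or TgGRK5-MI 3), in 6 of 10 for Rpl10a-ps1 (not without NLC-MI 2, NLC-MI 5, TgGRK5-MI 3 or TgGRK5-MI 4) and in 3 of 8 for Rpl36a-ps3 (not without NLC-MI 1, 2, 3 or 4 or TgGRK5-MI 3). Rpl36a-ps3 was at 0 counts in 3 NLC-MI and 2 TgGRK5-MI libraries.

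Genes that serve the ribosome were described with lists written by hand, to be read against 1.77% higher and 2.08% lower among all genes tested at an unadjusted p under 0.05. The list of 15 elongation genes also held Etf1, Gspt1, Gspt2, Abce1, Eef2k and Tpt1, which are not elongation factors. Of these 15 genes, 16 genes of the RNA polymerase I machinery and 106 ribosome assembly factors, 0 had an unadjusted p under 0.05 (edgeR). The medians of the log2 fold changes of the lists were -0.02, 0.06 and 0.03. Of 42 initiation factors, 1 was higher, Eif3k, a subunit of the eIF3 complex, with a mean of 112 CPM in the NLC-MI libraries (SD 15.1) and 137 CPM in the TgGRK5-MI libraries (SD 12). Its log2 change was 0.29 (standard error 0.13, edgeR p = 0.0494, exact permutation p = 0.0159). Of 37 regulators of ribosomal protein synthesis, 3 were lower. Mtor, the kinase that controls translation of the ribosomal protein mRNAs, ranged from 43.3 to 96 CPM across NLC-MI and from 45.7 to 59.4 CPM across TgGRK5-MI (log2 fold change -0.45, standard error 0.19, edgeR p = 0.0358, exact permutation p = 0.0794). Rptor, which brings substrates to that kinase, was lower by the same measure at -0.44 (standard error 0.16, edgeR p = 0.0200, exact permutation p = 0.0159). Ddit4, a stress-induced inhibitor of the pathway, was at -0.64 (standard error 0.29, edgeR p = 0.0479, exact permutation p = 0.0476). With 1 library left out, p stayed under 0.05 in 9 of 10 fits for Rptor (not without NLC-MI 4), 4 of 10 for Mtor, 3 of 10 for Ddit4 and 2 of 10 for Eif3k. Eif3k kept it only without NLC-MI 5 or TgGRK5-MI 1, Mtor without NLC-MI 1, 2 or 3 or TgGRK5-MI 1, and Ddit4 without NLC-MI 3 or 5 or TgGRK5-MI 5. The adjusted p of each of these 4 genes was 1.00, and none had groups that did not overlap. Of 18 ribosome-bound and quality control factors and 78 mitochondrial ribosomal proteins, which build the separate ribosome of mitochondria, 0 were called, with medians of -0.01 and 0.08.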

How the data were processed

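The 10 libraries, 5 NLC-MI and 5 TgGRK5-MI, hold cardiomyocyte RNA from day 4 after MI and were grouped by the sample labels. The authors deposited whole-number counts per Ensembl gene, not normalized. The submitters' processing notes name Bowtie2, RSEM 1.2.31, DESeq2 and mm10 without their roles. RSEM divides reads that match several genes by estimation, and whether these counts are its rounded estimates is not given in the sources used here. The labels name a TruSeq RNA v2 kit.

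Genes were placed with GENCODE M21 (GRCm38), which held 51596 of 51789 identifiers. In edgeR 4.0.16 (R 4.3.3), counts were scaled with TMM, filtered with filterByExpr and tested by quasi-likelihood over all 15232 genes that passed, with Benjamini-Hochberg adjustment. Thresholds were an adjusted p under 0.10 and an unadjusted p under 0.05. The log2 CPM in permutation tests (252 placements) used a prior count of 2. Pseudogenes were matched to members with blastn 2.17.0 (90% identity, 80% of the copy). A repeat with their counts added to the member covered the main fit, DESeq2, the 7 deeper libraries and the fits without 1 library. The other alternatives used the gene models alone. Sequences were read from the GENCODE M21 transcripts. Alternatives were DESeq2 1.42.0, limma-voom (limma 3.58.1), other scalings, filters and covariates, and leaving out libraries; the 7 deeper libraries and the coding-length level were added after seeing the data. On simulated counts of this comparison (15232 genes), edgeR recovered 56% of 50 genes changed by a fold of 2 and 100% of 50 changed by a fold of 4. Replicates are separate mice, and precision is limited by 5 a group. Intervals cover 95%.

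The members, lists and rules were chosen with earlier results of these data known. Named genes were stalk genes, paralogue pairs, Rps6, Rpl41, Rps19bp1, the 5 largest changes in each direction, the 3 highest and lowest levels, members with an unadjusted p under 0.05, Grk5, called genes of the lists, and pseudogenes with 10% or more of a family. Rps4l, of the pairs, is not reported here. Other genes were named after their values were seen.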

Additional observations from a re-analysis of the deposited data

Results flagged for a closer look

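For the named genes and the summed signal, 70 groups of 5 libraries were looked at for a library whose gap to its nearest neighbour exceeded Dixon's critical value of 0.71 times the range of the group. Chance alone flags about 1 in 20 independent groups. The 70 groups reuse the same 10 libraries, so that they are not independent of each other. In all, 20 values were flagged here, most of them in NLC-MI 3. In NLC-MI 3 the high values were 379 CPM for Rpl13 (others 152 to 178), 711 CPM for Rpl21 (283 to 334), 534 CPM for Rpl22 (200 to 239), 122 CPM for Rpl22l1 (38.9 to 50.7) and 233 CPM for Rpl36a (53.5 to 68.8). The same library was high for Rpl39 at 548 CPM (131 to 175), Rpl5 at 123 CPM (21 to 33), Rps12 at 163 CPM (12.8 to 22.3), Rps26 at 918 CPM (235 to 325), Rps27l at 170 CPM (49.8 to 68.3), Rps27rt at 71.6 CPM (1.67 to 5.63) and Rps6 at 811 CPM (193 to 210). It was low for Rpl7l1 at 40.6 CPM (60.8 to 63.3), Rpl9 at 179 CPM (396 to 472) and Rplp0 at 722 CPM (1177 to 1317).

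In TgGRK5-MI 4 the values of Rpl5 at 80.6 CPM (others 22.7 to 36.6), Rps12 at 117 CPM (13.6 to 35.1) and Rps6 at 836 CPM (163 to 351) were high. Rpl35 was high in TgGRK5-MI 3 at 382 CPM (202 to 236), and Rpl3l was high in NLC-MI 5 at 376 CPM (77.7 to 129).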

How the results depend on the processing

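The count of 0 genes with an adjusted p under 0.10 held under all alternatives run. At an unadjusted p under 0.05 the count of higher genes was 0 and became 3 with a covariate made of Xist minus Y-linked expression (which also gave 1 lower gene, Rpl3l), 3 with the log2 library total as a covariate, 1 with pseudogene counts added, 1 with DESeq2, 2 with limma-voom, and 0 to 13 in the fits that leave out 1 library. The 13 came without NLC-MI 3, and the count was 3 without TgGRK5-MI 1. The share over all genes is given above for the fit with pseudogene counts added and for that without NLC-MI 3. For the other fits it is not given, so that their counts have no background to be read against. The cause of these differences was not tested. The median log2 fold change was 0.10 and lay between -0.01 (offsets for transcript length and GC content) and 0.23 (Xist and Y-linked covariate), and between 0.02 and 0.17 with a library left out, the lowest without TgGRK5-MI 5. The log2 ratio of the summed CPM was 0.12, and 0.05 to 0.19 with a library left out. The median level per kilobase was 807 and fell to 456 per kilobase of all annotated exons, which are longer. With the replicate number as a block, 0 genes were called and the median was 0.11. Same-numbered libraries are different mice. The correlations of their deviations from the group means were 0.0717, 0.662, 0.381, -0.341 and 0.0848 for numbers 1 to 5. For differently numbered libraries the mean correlation was -0.0274. The values of numbers 2 and 3 were the highest, and whether same-numbered libraries share more than a number was not tested. The recovery by edgeR of a fold of 1.5 was 6% in simulated counts, so that most changes of that size would be missed with 5 libraries a group.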
